A study of Mus musculus with 5 samples.

Results

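The genes described here are the expressed members of the mouse Zfp family in B16F10 melanoma cells, a pigmented mouse line derived from a C57BL/6 tumour. They were chosen by name and level: protein-coding genes called Zfp followed only by digits, without Zfp36, whose FPKM (fragments per kilobase of gene, divided by a factor for each library whose basis is not given in the sources used here) was at least 1 in at least 1 of the 5 libraries. The name rule held for 364 of the 54699 genes in the deposited table, and 197 of these passed the level rule. The level rule used the same values that are compared below, so which genes passed is a description and was not tested. Zfp53, Zfp536 and Zfp345 lay just outside it, with highest FPKM of 0.979, 0.983 and 0.985, and Zfp644, Zfp113 and Zfp697 just inside, at 1.002, 1.02 and 1.05.

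RNA was sequenced from 1 library for each of 5 groups. Cells infected with lentivirus for forced expression of Myod1, a master transcription factor of skeletal muscle, cells infected for forced expression of Pparg, the master transcription factor of fat cells, and cells with the empty expression vector were collected at day 8. Cells with a short-hairpin RNA against Setdb1, a histone H3 lysine 9 methyltransferase, and cells with the empty knockdown vector were collected at day 7. The labels call the controls wild type, and all cells were infected and grown with 10% serum. The Myod1 and Pparg comparisons share 1 control library. With 1 library per group there is no replicate check, no test between conditions was made, and higher or lower below always means in these libraries. The promoter of the expression vectors and the selection of infected cells are not given in the sources used here.

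Most Zfp proteins bind DNA through tandem C2H2 zinc fingers. Many carry a KRAB domain at the amino end, which recruits Trim28 (also known as KAP1), and Trim28 in turn brings Setdb1 and other heterochromatin proteins to the bound site, often a transposable element. KRAB zinc finger genes lie in clusters that arose by tandem duplication, and several of these clusters are themselves covered by the same heterochromatin.

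The libraries held between 16214802 and 18300670 reads assigned to genes. Myod1 had 7610 reads in its own library and 0 in the other 4, Pparg had 2514 reads in its own and 0 in the other 4, and Setdb1 stood at 0.867 FPKM after knockdown against 9.82 in its control. All 10 melanocyte markers examined were at or above 1 FPKM in every library, with summed levels from 2320 in the Pparg library to 9147 in the Setdb1 library. The immune, endothelial and epithelial markers were below 1 FPKM in every library, and of 4 fibroblast markers 1 reached 1.92 in the Pparg library. Since these are bulk samples, fewer cells of a type and less RNA per cell cannot be told apart.

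The expressed Zfp genes were transcribed at low levels. Their median was 2.52 FPKM in the Myod1 library, 2.77 with Pparg, 2.75 in the empty expression vector control, 2.94 after Setdb1 knockdown and 3.13 in the empty knockdown vector control, while the median over all 12842 genes compared lay between 5.42 and 6.35. Together the 197 genes took between 0.489% and 0.599% of the reads of a library. The highest share was that of the Setdb1 knockdown. Of the 197, 134 reached 1 FPKM in all 5 libraries and 14 in only 1 of them. The Setdb1 knockdown had 2 of these, Zfp14 and Zfp593, and each other library had 3. In the Myod1 library these were Zfp287, Zfp560 and Zfp667, at 1.29, 1.26 and 1.75 FPKM.

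The 10 genes with the highest mean were Zfp598, Zfp706, Zfp428, Zfp106, Zfp771, Zfp777, Zfp740, Zfp703, Zfp346 and Zfp207. None of these 10 proteins matched the KRAB pattern described below, which does not show that the domain is absent. Zfp598, a ubiquitin ligase that marks collided ribosomes, stood at 46.7 FPKM with Myod1, 27.8 with Pparg, 36.1 in the empty expression vector control, 51.7 after Setdb1 knockdown and 25.7 in the empty knockdown vector control. Zfp207, a protein of the mitotic spindle, stayed between 17.3 and 26.5 in the same libraries. Zfp706 ranged from 31.3 to 47.6, with its highest value in a control library. Zfp346, which binds double-stranded RNA, was highest with Myod1, at 33.6, and lay between 13.8 and 20.7 elsewhere.

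Translated coding sequences of the GENCODE M21 annotation (GRCm38) were searched for C2H2 fingers and for a pattern of the KRAB A box. A pattern match is not a domain call, and a protein without a match can still hold a KRAB domain. Genes with a match are called KRAB genes below. The expressed genes had a median of 9 fingers and at most 36, and the finger pattern was absent from 4. The KRAB pattern matched 217 of the 364 genes, of which 81 were expressed (37.3%), against 116 of the 147 genes without a match (78.9%). The expressed KRAB genes had a median of 11 fingers and those without a match a median of 7. The 81 genes with a match had median levels between 1.23 and 1.71 FPKM over the 5 libraries, and the other 116 between 4.48 and 5.02.

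The family was spread over 20 chromosomes, with 88 of the 364 genes and 56 of the 197 expressed ones on chromosome 7. Genes whose starts lay at most 1 Mb from the next formed 23 clusters of at least 4 genes, which held 211 genes, 100 of them expressed. Clusters differed widely in how many of their genes passed the level rule. In the chromosome 13 cluster from 67.0 Mb, 1 of 19 genes did (Zfp87), in the chromosome 4 cluster from 145.5 Mb 2 of 18 (Zfp984 and Zfp991), in the chromosome 2 cluster from 174.6 Mb 1 of 11 (Zfp931), and in the first chromosome 17 cluster 4 of 23. The 4 genes of the chromosome 2 cluster from 150.1 Mb all stayed below the limit. At the other end, every gene passed in the chromosome 7 cluster from 127.2 Mb (10 genes), on chromosome 15 (6), in the second chromosome 6 cluster (4) and on chromosome 11 (4). The pattern matched all 19 genes of the chromosome 13 cluster and all 18 of the chromosome 4 cluster, but 4 of the 10 in the fully expressed chromosome 7 cluster. Median transcript GC content was 39.1%, 36.1% and 53.3% in these 3 clusters. Recently duplicated genes share long stretches of sequence, and how reads shared between copies were counted is not given in the sources used here, so single values in the dense clusters are uncertain.

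**Figure D1:**
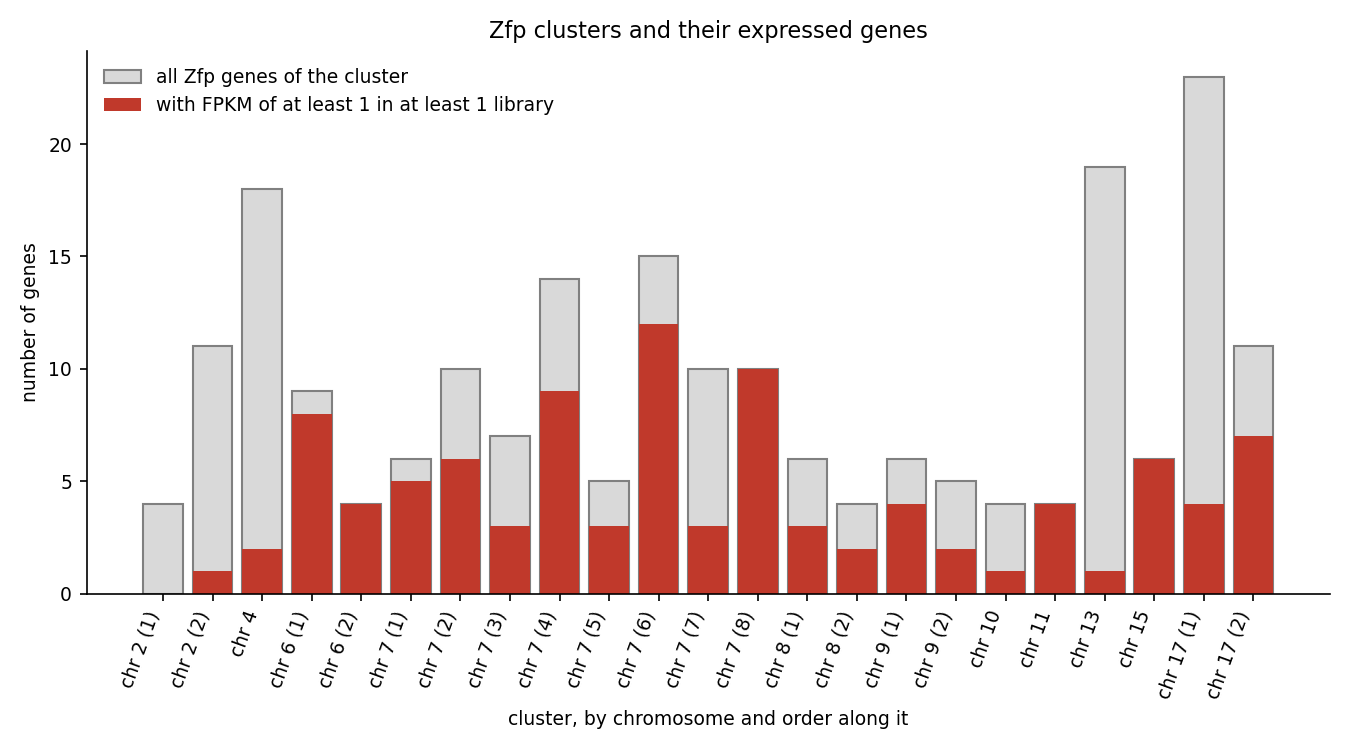
Number of Zfp genes (vertical axis) in each of the 23 clusters, named by chromosome and order along it. Grey bars show all genes of the cluster and red bars those with at least 1 FPKM in at least 1 library. The chromosome 13 bar holds 1 expressed gene of 19 and the eighth chromosome 7 bar 10 of 10.

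The 167 genes below the limit held few reads, 32 of them none in any library. Their summed reads were 1963 in the Myod1 library, 3327 with Pparg, 3636 in the empty expression vector control, 2933 after Setdb1 knockdown and 3478 in the empty knockdown vector control. The Myod1 library had the fewest of the 5 and the most reads in all, but the table scales each library by its own factor. There 3 reads per kilobase stand for 0.191 FPKM with Myod1 and for 0.157 to 0.184 in the other libraries. In FPKM the Myod1 library was still the lowest, with a sum of 26.0 against 32.7 to 46.7 in the others. Of the 135 with any reads, 96 were lower and 29 higher with Myod1 than in its control (71.1% lower), where over all 4886 protein-coding genes with reads but below the same limit 29.4% were lower and 47.0% higher. Against the other control 98 were lower and 28 higher. After Setdb1 knockdown 75 of the 135 were lower than in the control (55.6%, against 28.0% of the 4886) and 51 higher (37.8%, against 44.2%). These low Zfp genes had a median transcript GC content of 40.3%, the expressed ones 48.0%. The part of GC content in these counts was not tested.

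The Myod1 library also had the lowest summed FPKM in the chromosome 4 and chromosome 13 clusters. The 18 genes of the chromosome 4 cluster summed to 1.11 with Myod1, 3.92 with Pparg, 5.79 in the empty expression vector control, 2.25 after Setdb1 knockdown and 3.65 in the empty knockdown vector control. The 19 genes of the chromosome 13 cluster summed to 2.55, 5.19, 7.00, 6.19 and 7.15 in these libraries, named in the same sequence. In both, the sum after Setdb1 knockdown was below that of its control. Not every cluster followed this order. The 11 genes of the chromosome 2 cluster from 174.6 Mb summed to 3.40, 2.26, 2.65, 2.12 and 3.07, so there the Myod1 library was the highest. The 23 genes of the chromosome 17 cluster from 21008903 summed to 15.0, 20.2, 24.7, 21.6 and 20.4, lowest with Myod1 but above the control after Setdb1 knockdown.

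Against its control, a gene was counted as higher or lower when log2(FPKM + 1) differed by at least 1, that is 2-fold. This scale understates the change of low genes. In the Myod1 comparison 7 of the 197 genes were higher, where 14.0% of all genes compared were, and 6 were lower, where 7.55% were. This balance depended on the scaling: with libraries scaled by their column sums 5 were higher and 12 lower, against 9.63% and 14.8% of all genes. With the 75th percentile these were 6 and 8, against 11.6% and 10.4%. In the Pparg comparison 3 were higher (4.22% of all genes) and 0 lower (2.30%). In the Setdb1 comparison 12 were higher (9.34%) and 7 lower (10.3%). The members' shares in either direction, 6.60%, 1.52% and 9.64%, were all below the 21.6%, 6.52% and 19.7% of all genes. The controls differed from each other 2-fold at 1 member, Zfp395 (lower in the knockdown vector control, 1.69 against 5.55 FPKM), and at 2.67% of all genes, of which 1.23% higher and 1.44% lower. The medians of the members lay close to 0, at -0.10 for Myod1, -0.06 for Pparg and 0.01 for Setdb1, and those of all genes at 0.02, -0.02 and 0.00.

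The counts were also split by level, and the part of level in them was not tested. Among genes with a highest FPKM of at least 10, 6.82% of 44 members and 24.7% of all genes were changed with Myod1, and 20.5% of the members and 22.7% of all genes after Setdb1 knockdown. Between 1 and 2 FPKM, 1 of 49 members was changed with Myod1 and 0 after Setdb1 knockdown, where 14.3% and 10.6% of all genes were. With a pseudocount of 0.1 in place of 1, 12 members were higher and 29 lower with Myod1 (18.3% and 13.2% of all genes), and 21 higher and 27 lower after Setdb1 knockdown (15.0% and 16.3%). With Pparg 4 were then higher and 2 lower (8.81% and 4.66%), and between the controls 2 and 2 (3.26% and 4.15%). At that setting the share of members lower with Myod1 was no longer below that of all genes.

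**Figure D2:**
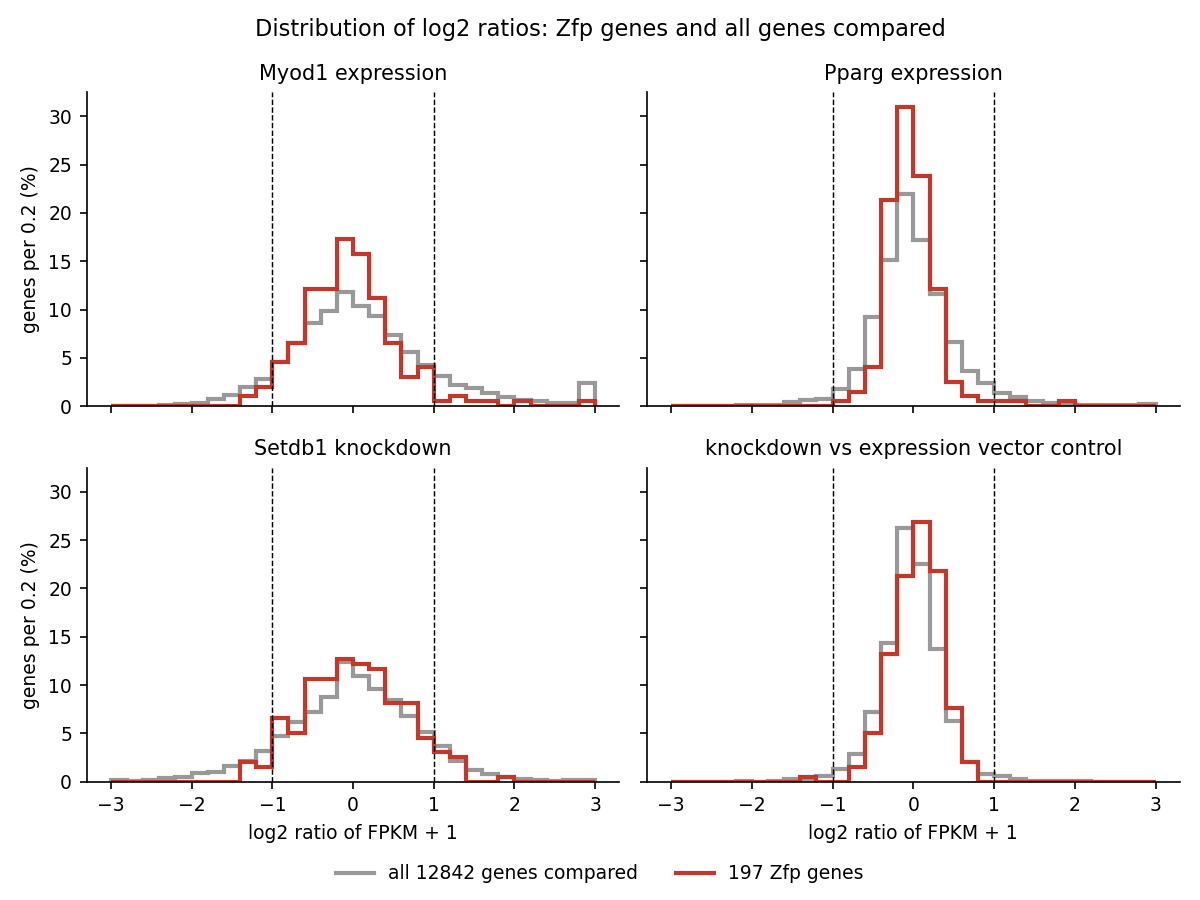
Share of genes (vertical axis, percent per step of 0.2) by log2 ratio of FPKM + 1 (horizontal axis, values beyond 3 placed at the ends) in 4 comparisons, for the 197 Zfp genes (red) and all 12842 genes compared (grey). Dashed lines mark 2-fold. The Zfp distributions are narrower at the tails, with 13 genes past the lines for Myod1, 3 for Pparg, 19 for Setdb1 and 1 between the controls.

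To keep out differences that one control library makes, the genes named next are those at least 2-fold from both controls in the same direction. With Myod1 these were 6 higher (11.9% of all genes) and 3 lower (4.42%). Zfp568, a KRAB protein known for silencing a placental Igf2 transcript in the embryo, lies at chr7:29983955-30028282 on the plus strand. It stood at 24.9 FPKM with Myod1, 2.67 with Pparg, 2.71 in the empty expression vector control, 3.40 after Setdb1 knockdown and 3.93 in the empty knockdown vector control. Only the Myod1 library was high, and the log2 ratio to its control was 2.80, the largest of the 197. On counting error alone the 95% Wilson interval was 24.0 to 25.8 in that library and 2.43 to 3.02 in its control; such intervals leave out the spread between cultures.

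Zfp651 (chr9:121759330-121771742, plus strand) had 24.6 FPKM with Myod1, 7.52 with Pparg, 5.15 in the empty expression vector control, 6.24 after Setdb1 knockdown and 5.30 in the empty knockdown vector control, a log2 ratio of 2.06. It overlaps an antisense gene on the other strand, E530011L22Rik, at 1.32 FPKM with Myod1 and 0.232 in the control, and whether the counting used strand is not given in the sources used here. Zfp106 (chr2:120506820-120563843, minus strand), an RNA-binding protein needed to maintain muscle and motor neurons, had 65.2, 14.6, 19.7, 8.62 and 17.7 FPKM in the same order of libraries. Its Myod1 value was the highest of any of the 197 genes in any library, with a log2 ratio of 1.68 for Myod1 and -0.96 for Setdb1. The Myod1 library was the highest of the 5 for it and the Setdb1 knockdown the lowest.

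Zfp691 (chr4:119169513-119174195, minus strand) stood at 8.88 FPKM with Myod1 against 2.45 in its control (log2 ratio 1.52), and the Setdb1 knockdown was second, at 4.93 against 2.39. Zfp30 (chr7:29783998-29794702, plus strand) had 4.73 against 1.31 (1.31), and Zfp84 (chr7:29768552-29779821, plus strand) 5.89 against 2.23 (1.09). Both are KRAB genes, and in the 3 libraries other than Myod1 and its control Zfp30 lay between 1.32 and 1.72 and Zfp84 between 2.40 and 2.84. Zfp84 falls under 2-fold when libraries are scaled by their column sums (0.77) or their 75th percentiles (0.94). The seventh gene, Zfp672, was higher against its own control alone.

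The lower genes with Myod1 were Zfp146, Zfp871 and Zfp445. Zfp146 (chr7:30161269-30169750, minus strand), whose protein is little more than 10 fingers, had 3.36 FPKM with Myod1, 7.95 with Pparg, 9.15 in the empty expression vector control, 4.10 after Setdb1 knockdown and 9.11 in the empty knockdown vector control. Its log2 ratio was -1.22 for Myod1 and -0.99 for Setdb1. Zfp445 (chr9:122844529-122866006, minus strand), which helps to keep genomic imprints, had 1.65, 4.03, 4.35, 2.21 and 4.50, with log2 ratios of -1.02 for Myod1 and -0.78 for Setdb1. Both genes were low in the Myod1 and Setdb1 libraries and higher in the other 3. Zfp948, Zfp984 and Zfp991, the others lower than the expression vector control, are KRAB genes with at most 2.44 FPKM in any library.

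Zfp871 (chr17:32771236-32788287, minus strand), a KRAB gene, was the only one of the 197 that changed 2-fold in the same direction in both the Myod1 and the Setdb1 comparison, being lower in both. Of all genes compared 2.90% were lower and 2.20% higher in both. It had 0.769 FPKM with Myod1, 2.34 with Pparg, 2.81 in the empty expression vector control, 0.432 after Setdb1 knockdown and 2.59 in the empty knockdown vector control. These values rest on 65, 241, 247, 43 and 233 reads. The log2 ratios were -1.11 and -1.33. No member was changed in all 3 comparisons, where 0.413% of all genes were higher and 0.296% lower in all 3.

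Of the higher genes, 3 are shown with the 250 bases before their RefSeq start (build GRCm38.p6), because Myod1 binds E-boxes and the first pair are neighbours that were higher together. Capitals mark CAGCTG, an E-box core that reads the same on both strands.
Zfp84: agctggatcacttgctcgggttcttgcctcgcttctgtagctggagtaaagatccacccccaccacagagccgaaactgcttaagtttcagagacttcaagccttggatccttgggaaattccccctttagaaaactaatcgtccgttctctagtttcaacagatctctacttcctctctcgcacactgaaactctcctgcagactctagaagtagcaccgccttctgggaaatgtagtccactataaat
Zfp30: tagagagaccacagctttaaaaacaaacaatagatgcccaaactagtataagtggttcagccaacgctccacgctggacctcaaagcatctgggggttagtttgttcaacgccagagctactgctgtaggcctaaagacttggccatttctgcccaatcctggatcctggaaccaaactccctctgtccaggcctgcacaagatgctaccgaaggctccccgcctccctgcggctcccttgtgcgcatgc
Zfp651: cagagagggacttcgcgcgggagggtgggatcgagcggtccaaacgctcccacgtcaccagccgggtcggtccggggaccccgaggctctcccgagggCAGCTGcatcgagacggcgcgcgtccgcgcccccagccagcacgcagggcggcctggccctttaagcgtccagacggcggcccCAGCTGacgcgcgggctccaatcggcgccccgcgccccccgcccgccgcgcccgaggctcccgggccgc
The windows are chr7:29768302-29768551, chr7:29783718-29783967 and chr9:121759783-121760032, all on the plus strand. CAGCTG occurs in the Zfp651 window 2 times, beginning 152 and 69 bases before the start, and in neither of the others. Other E-boxes, of the form CANNTG, were neither counted nor marked. For example, CACTTG stands in the Zfp84 window and CATCTG in the Zfp30 window. The RefSeq start of Zfp651 lies 703 bases from the start of the gene in the deposited table. The 1 window of Zfp106 and the 2 of Zfp691 hold no CAGCTG, and none was matched for Zfp568. The motif was in 13.0% of all 32851 RefSeq windows of this length and in 13.6% of the 199 windows of the 159 members that had one. A match is a description of letters and says nothing of binding. The member windows held a median of 13 CG dinucleotides and all windows a median of 6.

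Zfp84, Zfp30, Zfp568 and Zfp146 belong to 1 cluster of 15 genes on chromosome 7, from 29768552 to 30169750, in which 12 genes were expressed and 10 of those matched the KRAB pattern. Zfp84 and Zfp30 are adjacent, with starts 15446 bases apart. Between Zfp30 and Zfp568 lie 6 genes, and among them Zfp790, Zfp27, Zfp383 and Zfp74 had Myod1 log2 ratios of -0.07, 0.10, 0.18 and -0.40, while Zfp940 and Zfp420 stayed below 1 FPKM. Zfp14, the next gene after Zfp568, had 0.732 FPKM with Myod1 against 0.493 in the control. The high values with Myod1 were thus at 3 of the 12 expressed genes of the cluster (14.0% of all genes were higher), and its median log2 ratio was 0.06. After Setdb1 knockdown Zfp382 was the only one of the 12 past 2-fold, at 0.470 FPKM against 2.45 (log2 ratio -1.23), where 10.3% of all genes were lower, and against the other control it was less than 2-fold lower.

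**Figure D3:**
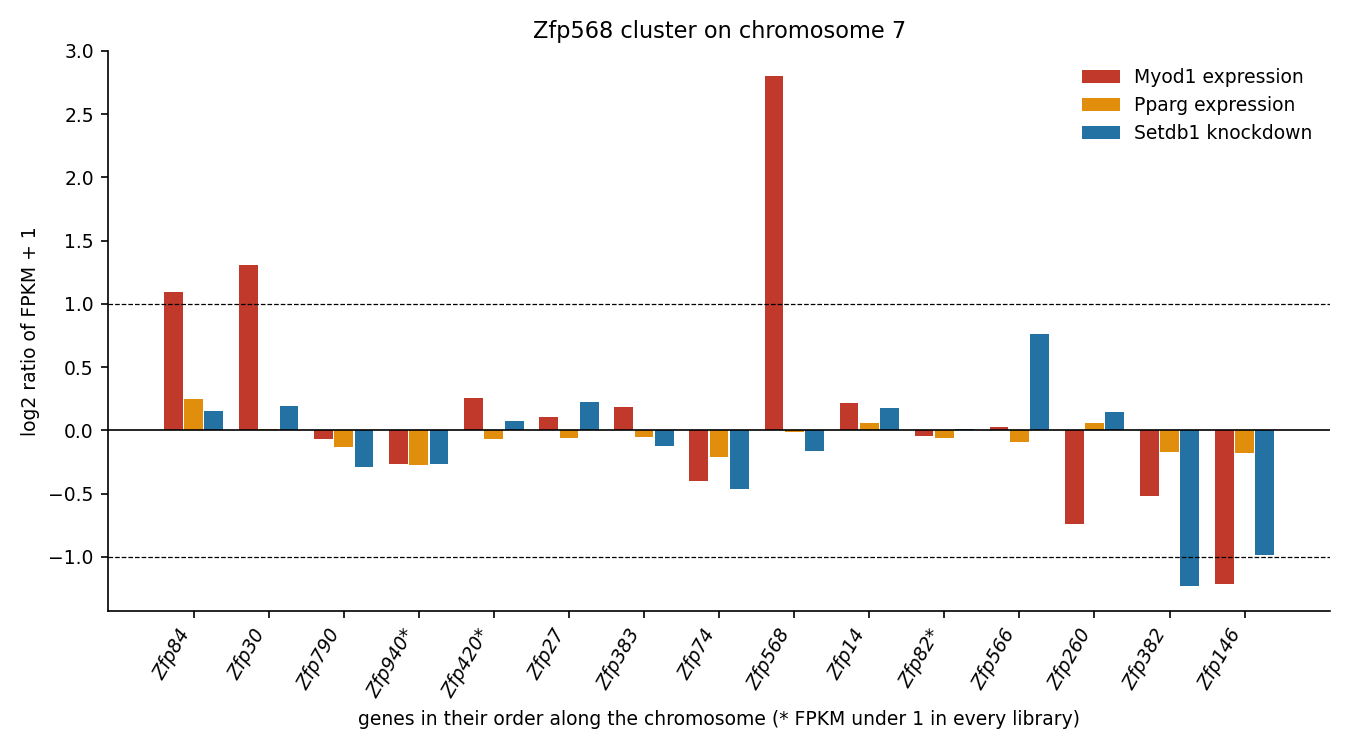
Log2 ratio of FPKM + 1 (vertical axis) of the 15 genes of the Zfp568 cluster in chromosome order, for Myod1 expression (red), Pparg expression (orange) and Setdb1 knockdown (blue), each against its own control. Dashed lines mark 2-fold, and asterisks mark the 3 genes under 1 FPKM in every library. Zfp568 reaches 2.80 with Myod1 while its neighbours Zfp74 and Zfp14 stay at -0.40 and 0.21.

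With Pparg, 3 genes were at least 2-fold higher than both controls (3.34% of all genes) and 0 lower (0.849%). Zfp423 (chr8:87661810-87959595, minus strand), known for committing precursor cells to the fat lineage, had 1.05 FPKM with Myod1, 6.56 with Pparg, 1.14 in the empty expression vector control, 0.886 after Setdb1 knockdown and 2.30 in the empty knockdown vector control. The log2 ratio to its own control was 1.82, and to the other control 1.19, as the controls themselves differed by 0.63. Zfp467 (chr6:48427697-48445825, minus strand), which favours fat over bone formation in marrow stromal cells, had 4.39, 11.3, 3.88, 12.9 and 4.74 in the same order. It was high in both the Pparg library (log2 ratio 1.33) and the Setdb1 knockdown (1.28).

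Zfp703 (chr8:26977325-26981461, plus strand), a transcriptional repressor of mammary epithelium that lacks the finger pattern used here, stood at 38.5 FPKM with Pparg and between 13.5 and 19.4 in the other 4 libraries (log2 ratio 1.10). AGGTCA, the core that nuclear receptors bind, was searched on both strands. It occurs in 1 of the 2 RefSeq windows of Zfp423, not in that nearest to the start in the deposited table, and not in the 1 window of Zfp467. It was in 14.0% of all windows and 10.6% of member windows. No window was matched for Zfp703. Of other genes tied to fat cells, Zfp516, a factor of brown fat, had 11.7 FPKM with Pparg against 15.2, and Zfp638, a cofactor of adipogenesis, 1.41 against 1.79. Zfp521, which opposes Zfp423, was below the limit, with 0.0103 FPKM in the Myod1 library and 0 reads in the other 4.

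After Setdb1 knockdown 8 genes were at least 2-fold higher than both controls (5.80% of all genes) and 2 lower (7.56%). Zfp688 (chr7:127418967-127422068, minus strand), a KRAB gene, had 3.19 FPKM with Myod1, 2.77 with Pparg, 2.46 in the empty expression vector control, 7.14 after Setdb1 knockdown and 1.33 in the empty knockdown vector control. The log2 ratio was 1.80 to its own control and 1.23 to the other, as the controls differed by -0.57. Zfp282 (chr6:47877204-47908485, plus strand), also a KRAB gene, had 30.7 FPKM after knockdown and between 10.3 and 12.8 in the other 4 libraries, a log2 ratio of 1.32. For both genes the Setdb1 knockdown was the highest library.

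The other higher genes had no KRAB match. Besides Zfp467 they were Zfp513 (21.2 FPKM after knockdown against 8.21), Zfp653 (4.17 against 1.24), Zfp579 (5.03 against 1.62), Zfp622 (29.6 against 12.8) and Zfp787 (12.9 against 5.74), with log2 ratios from 1.27 down to 1.04. Zfp622 takes part in the making of the large ribosomal subunit. Zfp513 overlaps Snx17 on the other strand, which had between 67.2 and 76.8 FPKM in the 5 libraries. Zfp787 falls to 0.97 and 0.96 under column-sum and 75th percentile scaling. Zfp523, Zfp740, Zfp444 and Zfp707 were higher against their own control alone.

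Zfp871, described above, and Zfp664 (chr5:124862691-124902693, plus strand) were lower than both controls. Zfp664 had 4.20 FPKM after knockdown and between 9.94 and 13.7 in the other 4 libraries, a log2 ratio of -1.20. Lower against their own control alone were Zfp426 (0.984 against 4.23), Zfp800 (log2 ratio -1.28), Zfp382, Zfp24 (3.45 against 8.19), which is needed for myelination, and Zfp326 (1.53 against 4.18), which links splicing to transcript elongation.

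**Figure D4:**
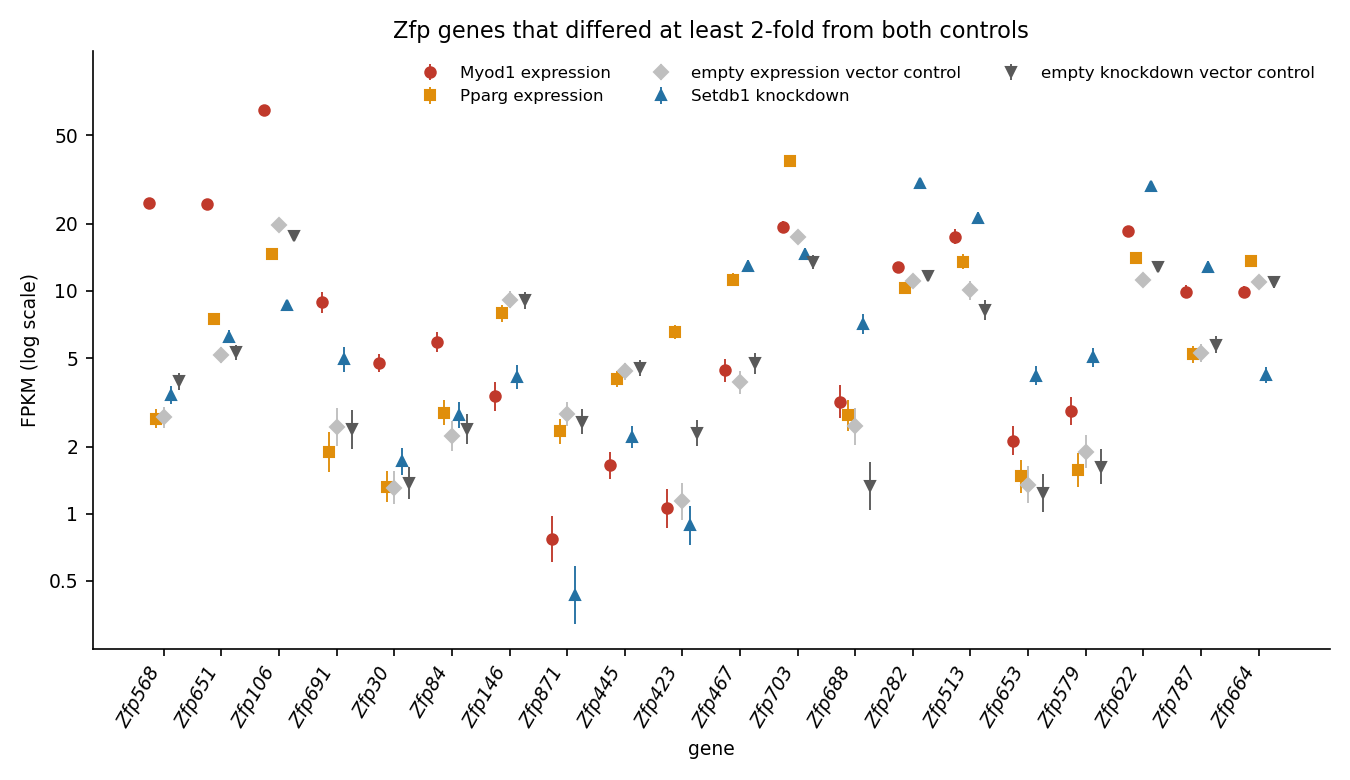
FPKM (vertical axis, log scale) of the 20 Zfp genes that differed at least 2-fold from both controls in a comparison, in each of the 5 libraries. Bars are 95% Wilson intervals from read counts, which cover counting error only. Zfp568 stands at 24.9 with Myod1 and at or below 3.93 elsewhere, and Zfp282 at 30.7 after Setdb1 knockdown and at or below 12.8 elsewhere.

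Over all genes compared, 9.34% were higher and 10.3% lower after Setdb1 knockdown. Of the 81 KRAB genes 3 were higher (3.70%) and 3 lower (3.70%), with a median log2 ratio of -0.13, and of the 116 without a match 9 were higher (7.76%) and 4 lower (3.45%), with a median of 0.13. In the Myod1 comparison, with 14.0% of all genes higher and 7.55% lower, 3 of the 81 were higher (3.70%) and 5 lower (6.17%, median -0.18), and of the 116 these were 4 (3.45%) and 1 (0.862%, median 0.02). The KRAB pattern was revised after members' sequences and these medians had been seen. Its first version matched 67 members in the longest protein, with Setdb1 medians of -0.16 and 0.11. Sought in any isoform it matched 68, with -0.16 and 0.12. A later version matched 82, with -0.15 and 0.14. Among related families, of 33 expressed Zbtb genes 3 were higher and 3 lower after Setdb1 knockdown (9.09% each, median 0.03), and of 14 Zscan and Zkscan genes 3 were higher (21.4%) and 1 lower (7.14%, median 0.41).

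A list of 28 genes compared held Trim28, Setdb1 and other corepressors, beside general enzymes of heterochromatin and DNA methylation. After Setdb1 knockdown 1 was higher (3.57%, against 9.34% of all genes) and 9 lower (32.1%, against 10.3%), with a median of -0.61. In all, 8 ratios were above 0 and 20 below. The 9 lower genes were Cbx3, Cbx5, Dnmt1, Hells, Setdb1, Sumo2, Suv39h1, Suv39h2 and Uhrf1. Setdb1, the target of the knockdown, is 1 of the 9, so its fall is part of the design. Against both controls 1 was higher (5.80% of all genes) and 5 lower (7.56% of all genes), Setdb1 among them. Sumo2, which was lower against its own control alone, differed by 2.49 between the controls. With Myod1 0 were higher (against 14.0%) and 6 lower (21.4%, against 7.55%), with a median of -0.52, and 4 were lower than both controls (4.42% of all genes). With Pparg 1 was higher (3.57%, against 4.22%) and 0 lower (against 2.30%), and 0 differed 2-fold from both controls. Trim28 itself stood at 171 FPKM after knockdown against 211 (log2 ratio -0.30). Uhrf1, which guides maintenance methylation of DNA, stood at 8.79 against 116 FPKM and Dnmt1, the maintenance methyltransferase, at 16.8 against 66.0. Chd3, a remodeller of the NuRD complex, was the 1 gene that was higher, at 36.8 against 8.98. Atf7ip, at 10.7 against 5.08 (log2 ratio 0.95), was short of 2-fold on this scale.

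Among members of known role, the 7 described next were all within 2-fold of their own controls on the log2(FPKM + 1) scale in the 3 treatment comparisons. Zfp57, a KRAB protein that protects imprints, had 1.29 FPKM with Myod1, 0.524 with Pparg, 0.501 in the empty expression vector control, 1.67 after Setdb1 knockdown and 0.727 in the empty knockdown vector control. Zfp809, a KRAB protein that silences endogenous retroviruses, had 1.25, 2.71, 2.07, 2.19 and 4.26 in the same order, so the knockdown was lower than its own control but level with the other. Zfp281, a regulator of pluripotent cells, had 1.96, 4.21, 4.84, 2.05 and 5.04, and Zfp148, a factor of GC-rich promoters, 1.56, 2.71, 3.64, 1.58 and 3.88. Both were lowest with Myod1 and after Setdb1 knockdown, with log2 ratios between -0.86 and -0.99, short of 2-fold on this scale. Zfp143, an activator of small nuclear RNA genes, ranged from 3.82 to 6.17, Zfp384 from 13.1 to 19.1 and Zfp410, known for controlling Chd4, from 3.60 to 4.86. Of the 28 genes on the role list 24 were expressed, and Zfp42, a marker of pluripotent cells, had 0 reads in all 5 libraries.

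Of the 12 clusters with at least 4 expressed genes, 2 had all Setdb1 ratios above 0, 2 had none above 0 and 8 were mixed. Of the 8 expressed genes of the chromosome 6 cluster from 47.8 Mb 7 were above 0 (median 0.69), of the chromosome 7 cluster from 4.9 Mb 5 of 5 (0.73), of the chromosome 7 cluster from 6.1 Mb 6 of 6 (0.56) and of the chromosome 7 cluster from 127.2 Mb 9 of 10 (0.37). In the second chromosome 17 cluster 0 of 7 were above 0 (median -0.35), and in the chromosome 9 cluster from 19.6 Mb 0 of 4 (-0.30). Of the other clusters, the chromosome 15 cluster had 5 of 6 above 0 (0.52), the chromosome 7 cluster from 24.1 Mb 7 of 9 (0.20), the chromosome 11 cluster 3 of 4 (0.36) and the first chromosome 17 cluster 3 of 4 (0.14). The chromosome 7 cluster from 29.8 Mb had 6 of 12 above 0 (0.01) and the chromosome 6 cluster from 117.8 Mb 2 of 4 (-0.06). Over all genes compared 50.3% were above 0. Median transcript GC content was 55.8%, 63.5%, 46.6% and 53.3% in the first 4 clusters named and 42.0% and 41.7% in the pair with none above 0. Within these 6 the highest levels were those of Zfp777, Zfp628, Zfp444, Zfp771, Zfp414 and Zfp266.

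Across the 197 genes the Setdb1 ratio went with transcript GC content, with Spearman's rho of 0.59 and Pearson's r of 0.55. Over 12679 genes the rho was 0.39. Genes are not independent replicates, and all points share the same pair of libraries. The median ratio was -0.40 in the tertile of members with the lowest GC content (up to 44.5%), 0.01 in the middle tertile and 0.39 in the highest (from 51.7%).

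For Setdb1 the medians rose over the tertiles inside both protein classes. KRAB genes had median Setdb1 ratios of -0.35 in the lowest tertile (41 genes), 0.17 in the middle tertile (28) and 0.41 in the highest (12), and genes without a match had -0.42 (25), -0.11 (37) and 0.37 (54). In each of the 3 tertiles the median of genes with a match was thus above that of genes without. Over all members it was below. The gaps in the lowest and the highest tertile were small, and the classes are those of the pattern only. With Myod1 the rho was 0.42 over members and 0.22 over all genes, with Pparg 0.17 and 0.19, and between the controls -0.17 and -0.27. Against the other control these were 0.50 and 0.33 with Myod1, 0.30 and 0.34 with Pparg, and for Setdb1 0.51 and 0.28. Within the KRAB genes the rho was 0.23 with Myod1 (0.28 against the other control), -0.02 with Pparg and 0.55 for Setdb1. Their Myod1 medians were -0.32, 0.06 and -0.32 from the lowest to the highest tertile, the last over 12 genes. Genes without a match had Myod1 medians of -0.51, -0.08 and 0.17. GC content also went with the mean level of the members (rho 0.58), and the part of level, library preparation or sequence in this relation was not tested. No library enters both the Myod1 and the Setdb1 ratio, and across the 197 genes these had a rho of 0.53, against 0.38 over all genes.

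**Figure D5:**
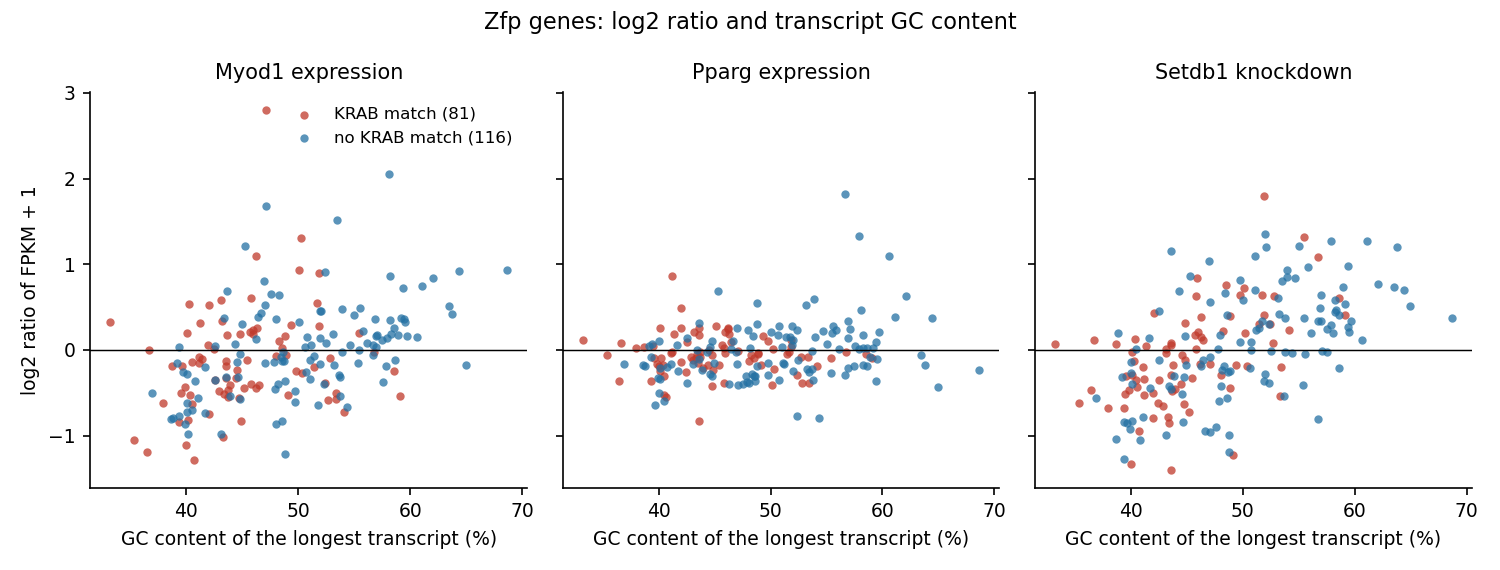
Log2 ratio of FPKM + 1 (vertical axis) against GC content of the longest transcript in percent (horizontal axis) for the 197 Zfp genes in the Myod1, Pparg and Setdb1 comparisons. Red points are the 81 genes with a KRAB match and blue points the 116 without. The Setdb1 points rise from left to right in both classes, and all but 3 of the Pparg points lie within 2-fold.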

How the data were processed

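RNA from 5 libraries, 1 per group, was sequenced after a NEBNext Ultra preparation, per the labels' protocols. The authors deposited 1 table of FPKM values for 54699 genes. The submitters' processing notes name CASAVA, HISAT2, featureCounts 1.5.0-p3 and the build GRCm38. The normalization and the handling of strand and of shared reads are not given in the sources used here. Deposited FPKM times gene length gave whole reads for 100% of values above 0 in each library, within a tolerance of 0.01, which is the source of read counts and of Wilson intervals at 95%. Depth was 16214802 to 18300670 reads.

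Genes with at least 1 FPKM in at least 1 library were compared as log2(FPKM + 1) differences in pandas 2.3.3, checked on simulated data, with a limit of 2-fold and no test. Genes were named if they changed against both controls (up to 6 per direction), had 1 of the 10 highest means, led a cluster with at least 4 expressed genes, were on a list of known roles, or lay next to the limit; others were named after their values were seen. The members and lists were chosen with earlier results of these data known. The KRAB and SCAN patterns, GC tertiles, level classes and promoter motifs were set after the data had been seen. KRAB patterns were sought in the first 250 residues of any isoform, and fingers (C, 2 or 4 residues, C, 12 residues, H, 3 to 5 residues, H) in the longest protein. RefSeq proteins, which had been planned, were not used here, and GENCODE M21 took their place. Of the 364 Zfp genes all were found in M21, 354 at the same position (97.3%). Promoter sequences are from RefSeq (GRCm38.p6) and matched 159 of 197 members.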

Additional observations from a re-analysis of the deposited data

How the results depend on the processing

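The values given here are those that differed by more than 1.5 times for a count or by 0.1 or more (log2) for a median. Leaving out the level filter could not change a count, since a gene under 1 FPKM in every library cannot reach 2-fold on this scale. With a pseudocount of 0.1, which can only enlarge a ratio, 12 members were higher and 29 lower with Myod1, 2 lower with Pparg, 21 higher and 27 lower after Setdb1 knockdown, and 2 higher and 2 lower between the controls. At 1.5-fold, 21 were higher and 28 lower with Myod1, 7 and 5 with Pparg, 39 and 31 after Setdb1 knockdown, and 4 and 5 between the controls. The shares of all genes at 1.5-fold are not given here, so these counts cannot be read as many or few. Scaling by column sums gave 12 lower with Myod1 (14.8% of all genes), a Myod1 median of -0.33 and 11 lower after Setdb1 knockdown (1536 of the 12842 genes compared). Scaling by the 75th percentile gave a Myod1 median of -0.21 and 11 lower after Setdb1 knockdown (1544 of the 12842). Column sums moved the Myod1 median of all genes by -0.28 and the 75th percentile by -0.12. Against the other control 5 members were higher with Pparg, and the share of all genes against that control alone is not given here. Of the genes past 2-fold against both controls, Zfp84 and Zfp787 fell under 2-fold with column sums and with the 75th percentile, settings tried for single genes after seeing the data, and 0 reversed. The other control and the smaller pseudocount could not end a call on these genes by construction. With starts at most 250 kb apart, likewise added, 22 clusters held 72 of the members. No paired analysis was possible because each group has 1 library, so no replicate could be left out either. Counting error is small for most members named, but libraries without replicates do not show the spread between cultures.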
